A study of Mus musculus with 6 samples.

Results

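Polypeptide GalNAc-transferases are the Golgi enzymes that start mucin-type O-linked glycosylation. The 10 genes described here are Galnt1, Galnt2, Galnt3, Galnt4, Galnt5, Galnt6, Galnt7, Galnt10, Galnt11 and Galnt12, all found by symbol among the 55401 genes of the count table. They were chosen by name with the results of the genotype comparison already known. The table held 9 further family genes, and the members were the 10 tested family genes with a fitted change above 0, while the 8 tested family genes outside the list were all below 0. The shared direction of the members is therefore a property of the list, and their changes are given as a description that supports nothing further.

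Each transferase moves N-acetylgalactosamine (GalNAc) from UDP-GalNAc to a serine or threonine of a protein in the secretory pathway. Some members, such as Galnt1 and Galnt2, act on unmodified peptides, whereas Galnt4, Galnt7, Galnt10 and Galnt12 prefer peptides that already carry GalNAc. Other enzymes then lengthen the sugar or cap it with sialic acid. In bone, GALNT3 is known for protecting the phosphate hormone FGF23 from cleavage.

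The libraries were stranded mRNA libraries of mouse inner ear, 3 from wild-type mice (WT, n = 3) and 3 from mice written as hemizygous for a Pou3f4 mutation (Pou3f4y/-, here KO, n = 3). Pou3f4 is an X-linked transcription factor of the mesenchyme around the ear, and the comparison was made to look into pigmentation of the mutant ear. The labels name inner ear cells of all types, with a further entry for interstitial cells. They give no age, strain, sex or dissection, do not describe the mutant allele, and do not say whether libraries came from separate animals, so p-values measure only the spread between these samples. The treatment entry is the same for all 6 libraries and names no agent.

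Library totals ran from 18409409 to 23323953 counts, and a gene with no read could still have a level of up to 3 counts, which is 0.131 to 0.168 CPM (counts per 1000000 on scaled library sizes) and covers counting error only. Pou3f4 stood at 58.3 to 114 CPM in WT against 1.22 to 1.96 CPM in KO. KO replicates 2 and 3, labelled hemizygous, held 15783 and 15119 counts of Xist and 0 of 4 Y-linked genes, as did WT replicates 1 and 2 with 11165 and 9143 counts of Xist. WT replicate 3 and KO replicate 1 held Y-linked reads instead. All 10 inner ear markers were detected in all libraries, and their summed level was 751, 1893 and 1679 CPM in WT replicates 1 to 3 and 720 to 807 CPM in KO. WT replicate 1 stood apart from the other WT libraries in this sum and in several transferases. Among single markers it lay between them for Tecta, Tectb, Oc90 and Slc26a5, and below both for the rest. Fitted changes, KO over WT, were above 0 for 6 of the 10 markers and below 0 for 4.

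Sequences before annotated RefSeq starts are shown first for the 3 members with the largest fitted changes, Galnt5, Galnt6 and Galnt3. Each is the 250 bases before an annotated RefSeq start, build GRCm38.p6, written along the strand of the gene, with every CG dinucleotide in capitals. Galnt5 (chr2:57997905-57998154, plus strand) held 3 CG dinucleotides. The gene coordinates used for the counts begin at 57997884, so this window lay inside the gene and not upstream of it. Galnt3 (chr2:66124794-66125043, minus strand) held 34. In the same coordinates Galnt3 starts at 66124994 on the minus strand, so its window lay partly inside the gene. The 2 windows of Galnt6, upstream (chr15:100729377-100729626, minus strand) and internal (chr15:100720478-100720727, minus strand), held 22 and 10.
Galnt5: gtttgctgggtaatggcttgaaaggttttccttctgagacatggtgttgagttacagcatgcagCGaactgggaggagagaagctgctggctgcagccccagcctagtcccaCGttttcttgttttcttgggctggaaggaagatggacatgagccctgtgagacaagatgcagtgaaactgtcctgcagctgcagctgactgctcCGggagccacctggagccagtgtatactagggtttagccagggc
Galnt3: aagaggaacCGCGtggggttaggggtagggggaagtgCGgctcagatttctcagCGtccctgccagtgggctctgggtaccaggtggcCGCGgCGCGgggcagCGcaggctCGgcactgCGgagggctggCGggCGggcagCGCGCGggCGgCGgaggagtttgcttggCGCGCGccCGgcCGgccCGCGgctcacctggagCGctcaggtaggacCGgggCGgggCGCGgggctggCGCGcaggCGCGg
Galnt6 upstream: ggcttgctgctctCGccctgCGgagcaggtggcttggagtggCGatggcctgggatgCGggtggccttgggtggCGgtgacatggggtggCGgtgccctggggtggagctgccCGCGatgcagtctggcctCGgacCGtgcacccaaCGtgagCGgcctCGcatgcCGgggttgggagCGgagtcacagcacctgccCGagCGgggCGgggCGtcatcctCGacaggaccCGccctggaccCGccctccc
Galnt6 internal: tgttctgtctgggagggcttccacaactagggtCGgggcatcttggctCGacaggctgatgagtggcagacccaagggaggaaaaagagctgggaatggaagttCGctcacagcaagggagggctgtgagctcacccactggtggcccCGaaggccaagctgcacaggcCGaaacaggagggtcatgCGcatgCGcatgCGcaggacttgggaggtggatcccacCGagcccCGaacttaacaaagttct

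The Galnt5 window thus lay below the median of 6 CG dinucleotides over 32851 such windows of the mouse RefSeq table, and the Galnt3 window and the upstream Galnt6 window above its upper quartile of 16. The GC content was 54.0% for Galnt5 and 76.8% for Galnt3, against a median of 52.4%. The RefSeq windows examined covered 6 of the 10 members, 8 windows in all. Galnt1, Galnt2, Galnt4 and Galnt12 were not covered, so nothing is said of their upstream sequences. The octamer ATGCAAAT, the letters that POU-domain factors are known to bind, was searched on both strands. It was found in 1 of the 8 windows, before the internal start of Galnt11 (chr5:25246123-25246372, plus strand), where capitals mark it, and in 1.60% of all windows. It was not among the letters of the Galnt3, Galnt5 and Galnt6 windows, which says nothing of Pou3f4 itself.
Galnt11 internal: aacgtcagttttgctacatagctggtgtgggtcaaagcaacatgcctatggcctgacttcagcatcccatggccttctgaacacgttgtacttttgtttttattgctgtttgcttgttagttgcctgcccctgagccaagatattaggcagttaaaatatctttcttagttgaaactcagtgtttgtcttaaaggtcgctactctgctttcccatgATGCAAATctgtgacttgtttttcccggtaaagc

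Among the 10 members, Galnt5 had the largest fitted change between the genotypes. It encodes a transferase with a long stem region, and lies on mm10 chromosome 2, 57997884 to 58045860, plus strand (ENSMUSG00000026828). Its level was 7.93, 10.9 and 10.5 CPM in WT replicates 1 to 3 and 22.9, 23.6 and 24.5 CPM in KO replicates 1 to 3. Each KO library held at least 2 times the level of every WT library, and WT replicate 1 was the lowest. The means were 9.78 ± 1.61 CPM in WT against 23.6 ± 0.827 CPM in KO (SD, n = 3 each), a 2.41-fold difference and a change of 1.27 log2 (SE 0.15). The change is KO over WT, as are all those given after it. In edgeR's fit over all 19687 genes tested, its adjusted p was 0.0490. In this bulk tissue a difference in the number of cells of a type and one in RNA per cell cannot be told apart.

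Galnt5 was the 1 member of 10 past the threshold of 0.05, where 0.396% of all genes tested passed in either direction and 0.213% passed as higher in KO. Because the members were chosen with this comparison known, nothing is read from that count. The fitted change of Galnt5 ranged from 1.13 to 1.36 over the 15 alternative fits. Its adjusted p in edgeR was 0.136 when WT replicate 3 was left out, and 0.357, 0.271 and 0.330 when the KO libraries 1, 2 and 3 were left out in turn. With the presence of Xist reads as a term beside genotype it was 0.145. In the 4 fits without a library edgeR called 0 of all genes, with 3364, 2199, 2638 and 2087 at an unadjusted p under 0.05. Ermn, which runs the other way, covers 5.31% of the Galnt5 exons. Ermn held 26, 220 and 265 counts in WT and 134, 178 and 113 counts in KO, against 142 to 209 and 453 to 541 counts for Galnt5, so its reads did not follow those of Galnt5.

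**Figure D1:**
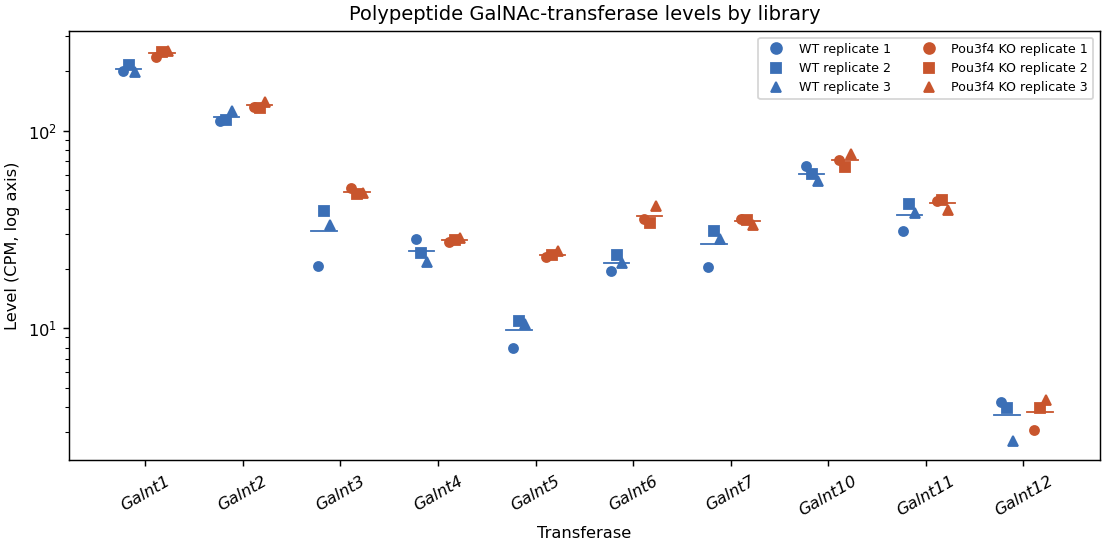
Levels of the 10 transferases in each library, in CPM on a log axis, with 1 marker per library (WT blue, KO orange) and a horizontal line at each group mean. Galnt5 is at 7.93 to 10.9 CPM in WT against 22.9 to 24.5 CPM in KO, and Galnt12 is the lowest member in every library.

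Galnt6 and Galnt3 are close relatives that act on similar peptides, and both had higher levels in every KO library than in any WT library. Galnt6 (ENSMUSG00000037280, chromosome 15, 100691813 to 100729376, minus strand) is known to modify fibronectin. It stood at 19.5, 23.6 and 21.4 CPM in WT against 35.8, 34.0 and 41.8 CPM in KO. The 3 KO libraries were above every WT library, with means of 21.5 ± 2.06 and 37.2 ± 4.07 CPM. The change was 0.79 log2 (SE 0.12, adjusted p = 0.0602, edgeR), just outside the threshold that Galnt5 just met.

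The antisense transcript Galnt6os covers 11.4% of Galnt6 exon length from the other strand. It held 66, 71 and 96 counts in WT and 220, 166 and 182 counts in KO, a change of 1.12 log2 (SE 0.20, adjusted p = 0.0752, edgeR). The library kit keeps strand, but whether counting used it is not given in the sources used here, so reads of Galnt6 and Galnt6os may be shared.

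Galnt3 (ENSMUSG00000026994, chromosome 2, 66082766 to 66124994, minus strand) stood at 20.7, 39.2 and 33.4 CPM in WT. In KO it stood at 51.1, 47.9 and 48.2 CPM. The KO libraries were close together, while WT replicate 1 was well below the other WT libraries. The means were 31.1 ± 9.44 and 49.1 ± 1.81 CPM, with a change of 0.66 log2 (SE 0.22, adjusted p = 0.182, edgeR). Without WT replicate 1 the change was 0.42 (SE 0.08, adjusted p = 0.0346, edgeR), smaller and past the threshold.

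Galnt1 and Galnt2, which are broadly expressed, had the highest levels of the family, and neither passed the threshold. Galnt1 (ENSMUSG00000000420, chromosome 18, 24205344 to 24286818, plus strand) stood at 201, 216 and 199 CPM in WT against 236, 250 and 254 CPM in KO. The groups did not overlap, at 206 ± 9.32 and 246 ± 9.32 CPM, and the change was 0.26 log2 (SE 0.08, adjusted p = 0.168, edgeR). Galnt2 (ENSMUSG00000089704, chromosome 8, 124231391 to 124345724, plus strand), known for modifying lipoprotein regulators, stood at 112, 114 and 126 CPM in WT against 132, 131 and 140 CPM in KO. The groups did not overlap but lay close to each other, with a change of 0.20 log2 (SE 0.08, adjusted p = 0.250, edgeR). Reads of Galnt2 cannot be told from those of the readthrough model Galnt2l, which shares 90.0% of its exon length and held 15537 counts against 15274 for Galnt2 over the 6 libraries.

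The 4 members that prefer glycosylated peptides form related pairs, Galnt7 with Galnt10 and Galnt4 with Galnt12. Galnt7 (chromosome 8) stood at 20.6, 31.1 and 28.4 CPM in WT against 35.6, 35.4 and 33.3 CPM in KO, without overlap between the groups, with a change of 0.38 log2 (SE 0.16), or 0.21 log2 without WT replicate 1. Galnt10 (chromosome 11) overlapped between the groups, at 55.4 to 66.5 CPM in WT against 65.3 to 76.4 CPM in KO, with a change of 0.22 log2 (SE 0.10). Both fitted changes were smaller than those of Galnt6 and Galnt5.

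Galnt4 is a gene inside the locus of Poc1b on chromosome 10, with which it shares 8.25% of its exon length on the same strand. Its levels of 21.8 to 28.3 CPM in WT against 27.5 to 28.6 CPM in KO overlapped, with WT replicate 1 at the level of the KO libraries. The change was 0.18 log2 (SE 0.12), or 0.28 log2 without that library and 0.10 log2 without WT replicate 3. Galnt12, at 2.69 to 4.25 CPM in WT against 3.05 to 4.33 CPM in KO, was the only member below 10 CPM in every library. Its log2 fold change of 0.06 (SE 0.25) turned negative without WT replicate 3 (−0.12) or KO replicate 3 (−0.05).

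Galnt11, which in frog embryos is known to act on Notch1, stood at 31.0, 42.4 and 38.4 CPM in WT against 44.0, 44.8 and 39.8 CPM in KO. The groups overlapped, WT replicate 1 was again the lowest, and the change was 0.20 log2 (SE 0.13), or 0.07 log2 without that library and 0.31 log2 without WT replicate 2. Its neighbour on chromosome 5, the family gene Galntl5, held 0 counts in 5 libraries and 1 count in KO replicate 2. Of the 10 members, 6 had no overlap between the groups, all higher in KO, and 4 overlapped. Of all genes tested 15.0% had no overlap and were higher in KO, and 12.7% had no overlap and were lower, and nothing is read from the members' count. The median log2 fold change was 0.24 over the members and −0.01 over all genes tested, of which 49.0% were above 0.

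**Figure D2:**
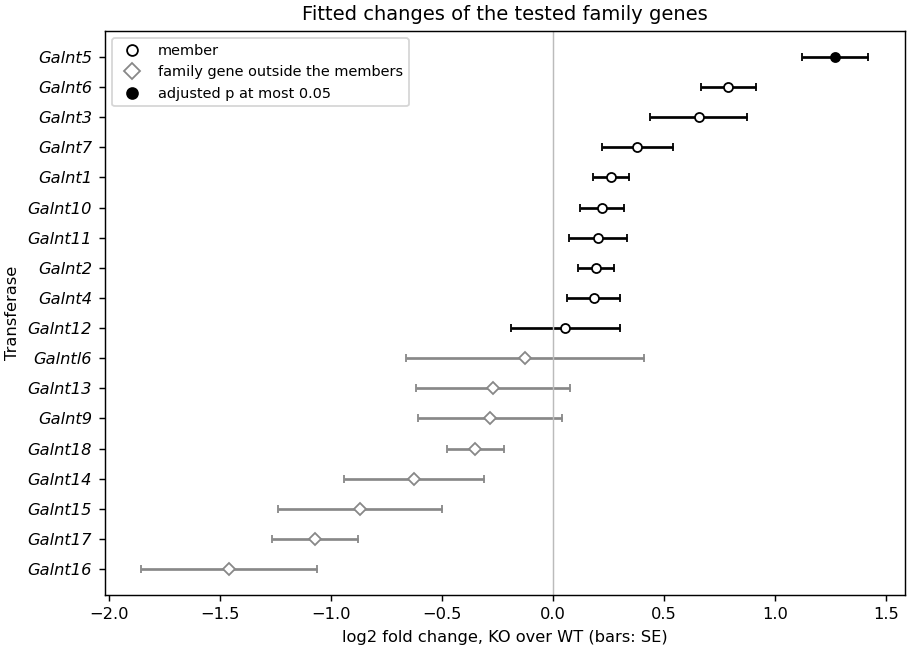
Fitted log2 fold changes, KO over WT, of the 18 tested family genes with their SE as bars. Circles are the 10 members and diamonds the 8 family genes outside the list, and the filled point, Galnt5 at 1.27, is the only one with an adjusted p at most 0.05.

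The family genes outside the list lay on the other side of 0, with a median log2 fold change of −0.49. Over these 8 genes edgeR called 0, with 3 at an unadjusted p under 0.05 (19.6% of all genes tested), and DESeq2 called Galnt16 and Galnt17 lower (8.14% of all genes). Galnt16, a relative of Galnt2, had a change of −1.46 log2 (SE 0.40, adjusted p = 0.146, edgeR). It stood at 60.4, 19.4 and 29.3 CPM in WT against 13.1, 14.5 and 12.1 CPM in KO, so WT replicate 1 alone held more than the other WT libraries together. Without that library its change was −0.89 (adjusted p = 0.0396, edgeR), and without WT replicate 2 it was −1.76 (adjusted p = 0.0419, edgeR). Galnt17 stood at 22.8, 16.0 and 15.7 CPM in WT against 8.49, 9.76 and 7.63 CPM in KO, a change of −1.07 log2 (SE 0.19, adjusted p = 0.0752, edgeR). Its adjusted p in edgeR was 0.0203 without WT replicate 1 and 0.0475 without WT replicate 2. In these fits edgeR called 9.06% and 3.78% of all genes. Without WT replicate 3 the adjusted p in edgeR was 0.227 for Galnt16 and 0.151 for Galnt17. Without KO replicates 1, 2 and 3 in turn it was 0.445, 0.341 and 0.463 for Galnt16 and 0.395, 0.289 and 0.388 for Galnt17. Galnt15 (−0.87, SE 0.37) was highest in WT replicate 1 as well, at 15.5 CPM against 5.09 to 7.63 CPM in the other libraries, and its change was −0.35 log2 without it.

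Galnt18 (−0.35, SE 0.13) stood at 18.3 to 23.4 CPM in WT against 15.8 to 17.7 CPM in KO, without overlap. Galnt14 (−0.62, SE 0.32), Galnt9 (−0.28, SE 0.32), Galnt13 (−0.27, SE 0.35) and Galntl6 (−0.13, SE 0.54) overlapped between the groups, at 0.649 to 7.77 CPM over all libraries. Single libraries moved these values by over 1.5 times. Galnt14 was at −0.25 log2 without WT replicate 2. Galnt9 and Galnt13 were at −0.54 and −0.53 log2 without WT replicate 1, and at −0.07 and −0.05 log2 without KO replicate 3. Galnt9 was at −0.19 and −0.10 log2 without WT replicates 2 and 3, and Galnt13 at −0.06 and −0.18 log2. Without KO replicate 2, Galnt13 was at −0.51 log2. Galntl6 ranged from −0.46 log2 without WT replicate 2 to 0.24 log2 without KO replicate 3, and was at 0.23 log2 without WT replicate 3. Since these genes are what the member list leaves out, their direction is fixed by that list too.

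Levels of different genes were compared per kilobase of exon (RPKM on the scaled library sizes). Galnt1, Galnt2 and Galnt10 held ranks 1, 2 and 3 among the members in all 6 libraries, at means over the libraries of 40.9, 29.3 and 11.0 RPKM. Galnt3 (9.16 RPKM) and Galnt6 (7.59 RPKM) followed, with ranges that overlapped each other. Galnt7 (5.85 RPKM), Galnt11 (5.85 RPKM) and Galnt4 (5.18 RPKM) had ranges over the 6 libraries that overlapped. In KO, however, Galnt7 (6.34 to 6.78 RPKM) and Galnt11 (5.81 to 6.54 RPKM) were above Galnt4 in every library. Galnt5 (3.75 RPKM) and Galnt12 (1.62 RPKM) were lowest. Galnt5 was below Galnt12 in WT replicate 1 and above it in the other libraries. Galnt5 was at 1.78 to 2.44 RPKM in WT and 5.12 to 5.49 RPKM in KO, where its range overlapped that of Galnt4 (5.40 to 5.61 RPKM).

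The summed level of all 19 family genes was 125.1 to 128.5 RPKM in WT and 144 to 151 RPKM in KO. Galnt1 and Galnt2 together made up 50.0% to 52.2% of that sum in every library of both genotypes. Galnt3, Galnt5 and Galnt6 together made up 9.23% to 13.6% in WT and 17.2% to 18.1% in KO. The share of Galnt5 alone was 1.73 ± 0.270% in WT and 3.61 ± 0.0509% in KO (SD, n = 3 each). Galnt16 made up 6.00% of the sum in WT replicate 1, 1.88% and 2.89% in the other WT libraries and 1.00% to 1.23% in KO.

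**Figure D3:**
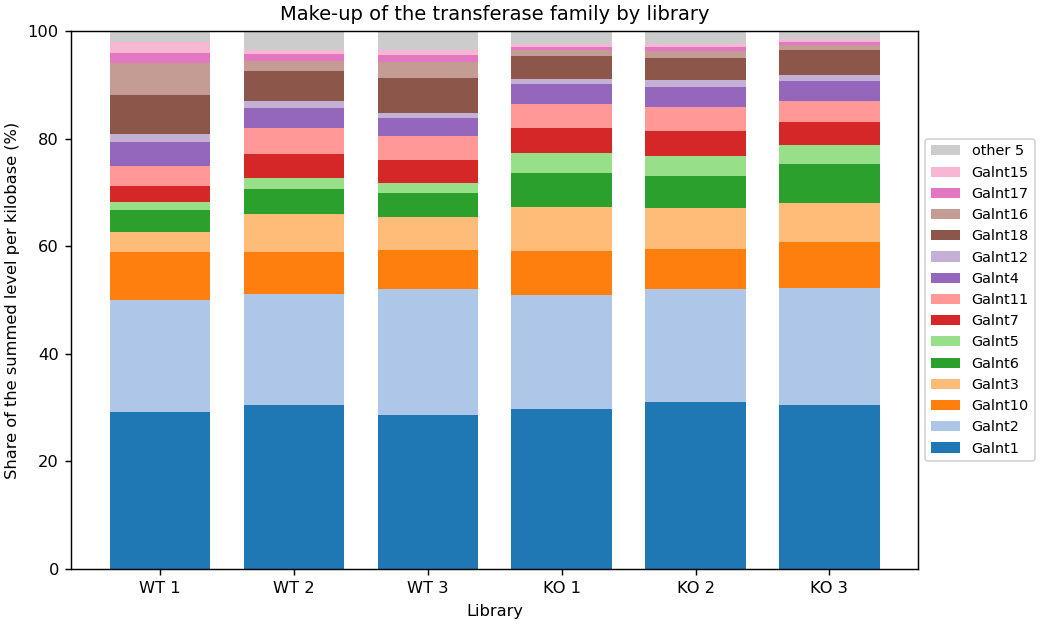
Share of each transferase in the summed level per kilobase of the family, in percent, for each library. Galnt1 and Galnt2 fill 50.0% to 52.2% of every bar, and the segments of Galnt3, Galnt6 and Galnt5 are together 9.23% to 13.6% in WT and 17.2% to 18.1% in KO.

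Ratios within a library compare relatives without any scaling between libraries. The Galnt3 to Galnt6 ratio per kilobase overlapped between the genotypes, at 1.26 ± 0.283 in WT and 1.18 ± 0.135 in KO. The Galnt3 to Galnt5 ratio did not overlap, at 2.67, 3.67 and 3.23 in WT and 2.28, 2.07 and 2.01 in KO. The Galnt1 to Galnt2 ratio was 1.37 ± 0.128 in WT and 1.42 ± 0.0488 in KO. The Galnt2 to Galnt16 ratio was 3.47, 11.0 and 8.08 in WT and 18.9, 17.0 and 21.7 in KO, without overlap and with WT replicate 1 the lowest.

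The rest of the O-glycosylation pathway was examined with lists that do not contain the members. UDP-GalNAc, the sugar donor, is made from hexosamines, and of the 8 genes of its synthesis and transport 7 had fitted changes above 0, with a median of 0.38 log2. Over all genes edgeR called 0 of the 8, with 5 at an unadjusted p under 0.05, where 19.6% of all genes tested had one. DESeq2 called Gfpt1 and Pgm3 higher, where it called 8.14% of all genes. Gfpt1, which starts the hexosamine pathway, stood at 81.6 ± 6.02 CPM in WT against 102 ± 3.07 CPM in KO, a change of 0.33 log2 (SE 0.08, adjusted p = 0.129, edgeR). Pgm3, which converts the hexosamine phosphate, stood at 26.5, 36.9 and 34.0 CPM in WT against 48.8, 48.7 and 51.8 CPM in KO. Its groups did not overlap, and its log2 fold change was 0.61 (SE 0.13, adjusted p = 0.102, edgeR). Pgm3 was called higher by edgeR without WT replicate 1, where 9.06% of all genes were called, and without WT replicate 2, where 3.78% were. Gfpt2 alone was below 0 (−0.54, SE 0.25), and Uap1 stood at 50.4 ± 0.462 and 50.6 ± 2.41 CPM.

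Enzymes that extend or cap the sugar showed no common direction, with 7 of 14 tested genes above 0 and a median of −0.01 log2. EdgeR called 0 of the 14, with 5 at an unadjusted p under 0.05, against 19.6% of all genes tested. DESeq2 called 3 higher, all sialyltransferases, against 8.14% of all genes. Without WT replicate 1 edgeR called the same 3 higher, against 9.06% of all genes, and without WT replicate 2 it called C1galt1 and St6galnac4 higher, against 3.78%. St6galnac4 stood at 44.5, 54.8 and 50.0 CPM in WT against 71.6, 74.2 and 74.4 CPM in KO, a change of 0.56 log2 (SE 0.09, adjusted p = 0.0630, edgeR). St3gal1, which caps the core disaccharide, stood at 88.4, 94.6 and 102 CPM in WT against 140, 128 and 149 CPM in KO, a change of 0.54 log2 (SE 0.09, adjusted p = 0.0671, edgeR). The other call was St6galnac6 (0.31, SE 0.07), and none of the 3 overlapped between the groups. C1galt1, which builds the core 1 disaccharide, stood at 80.1 ± 15.7 CPM in WT against 102 ± 2.38 CPM in KO, a change of 0.35 log2 (SE 0.14). Its chaperone C1galt1c1 stood at 25.4 ± 7.08 and 26.2 ± 1.26 CPM.

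Enzymes that start other kinds of O-linked glycosylation had a median of 0.10 log2, with 8 of 13 above 0. EdgeR called 0 of them, with 4 at an unadjusted p under 0.05 (19.6% of all genes tested), and DESeq2 called 1 higher, Ogt (8.14% of all genes). Without WT replicate 1 edgeR called 1 higher, Tmtc3, where it called 9.06% of all genes. Ogt, which adds N-acetylglucosamine inside cells, stood at 132 ± 14.2 CPM in WT against 174 ± 7.44 CPM in KO, a change of 0.40 log2 (SE 0.10, adjusted p = 0.132, edgeR). Pofut2, which adds fucose to thrombospondin repeats, stood at 94.2 ± 12.7 and 116 ± 1.36 CPM. The lowest fitted change (−0.46) was that of Xylt1, which starts proteoglycan chains, at 63.1 CPM in WT replicate 1 and 24.9 to 37.4 CPM in the other libraries.

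Among the proteins that carry these sugars, Parm1 fell. This mucin-type membrane protein stood at 42.1, 40.2 and 34.5 CPM in WT against 16.5, 18.3 and 16.5 CPM in KO, without overlap. The change was −1.19 log2 (SE 0.11, adjusted p = 0.0387, edgeR), a 2.27-fold difference. Its adjusted p exceeded 0.05 without WT replicate 3 (0.0964) or without any 1 of the KO libraries (0.256 to 0.357), and was 0.145 with the presence of Xist reads as a term. Parm1 was the 1 gene called of 13 tested mucins and mucin-type glycoproteins, where edgeR called 0.396% of all genes tested. Of the 13, 7 were above 0, with a median of 0.08 log2. The fall of Parm1 was known when the list was written.

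Of 11 tested genes on a list of substrates reported for single transferases, edgeR called 0, with 2 at an unadjusted p under 0.05 (19.6% of all genes tested), and 7 were above 0 (median 0.04 log2). DESeq2 called 1, dystroglycan, Dag1, as lower (−0.43, SE 0.12, adjusted p = 0.157, edgeR). Fibronectin, Fn1, stood at 2417, 1070 and 1383 CPM in WT against 1982, 1735 and 2114 CPM in KO. WT replicate 1 was above every KO library and the other WT libraries below them, and without that library edgeR called Fn1, Sdc1 and Vldlr higher, where it called 9.06% of all genes. Lrp1, a large endocytic receptor, stood at 442 ± 106 and 451 ± 57.3 CPM. Fgf23, a known substrate of Galnt3, was below the filter, at 0.435 to 0.864 CPM over the libraries.

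**Figure D4:**
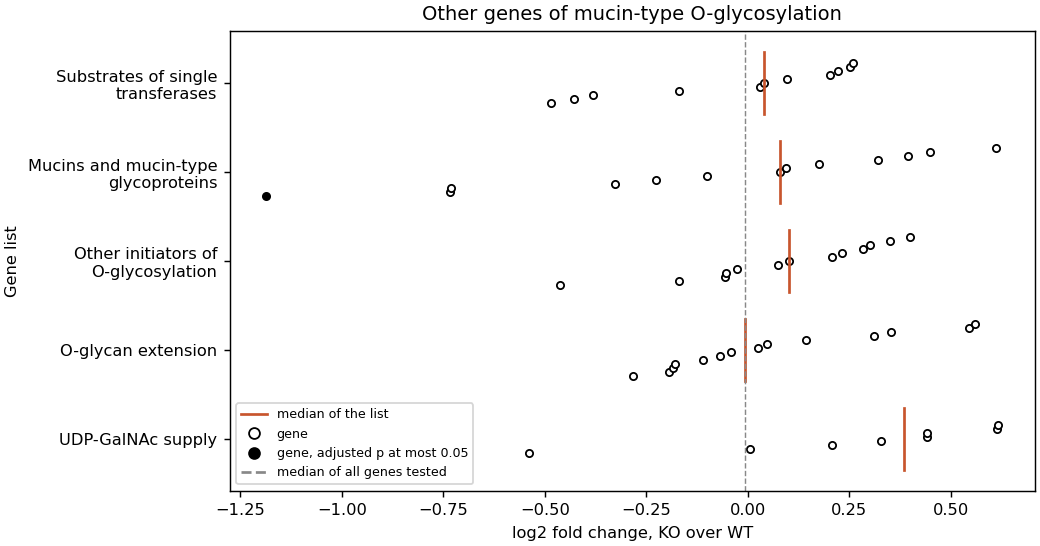
Fitted log2 fold changes, KO over WT, of the tested genes in 5 lists of the pathway, with the median of each list as a vertical line and the median of all genes tested, −0.01, as a dashed line. The filled point is Parm1 at −1.19, the only gene called, and the donor supply list has the highest median, 0.38.

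The genes with a profile most like that of Galnt5 over the 6 libraries were found among 14441 protein-coding genes with a mean of at least 1 CPM. Likeness was the root mean square difference of log2 CPM centred on the gene's own mean. The nearest was Cgref1 (0.05 log2), which stood at 49.4 ± 6.63 CPM in WT against 117 ± 4.32 CPM in KO. Tnc, the matrix glycoprotein tenascin C, followed (0.09 log2), at 823 ± 106 and 1848 ± 130 CPM. Acot12, a thioesterase, came next (0.14 log2), then Fkbp11, a prolyl isomerase of the endoplasmic reticulum (0.15 log2). All of these shared the low value of WT replicate 1, which choosing them by the Galnt5 profile favours.

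**Figure D5:**
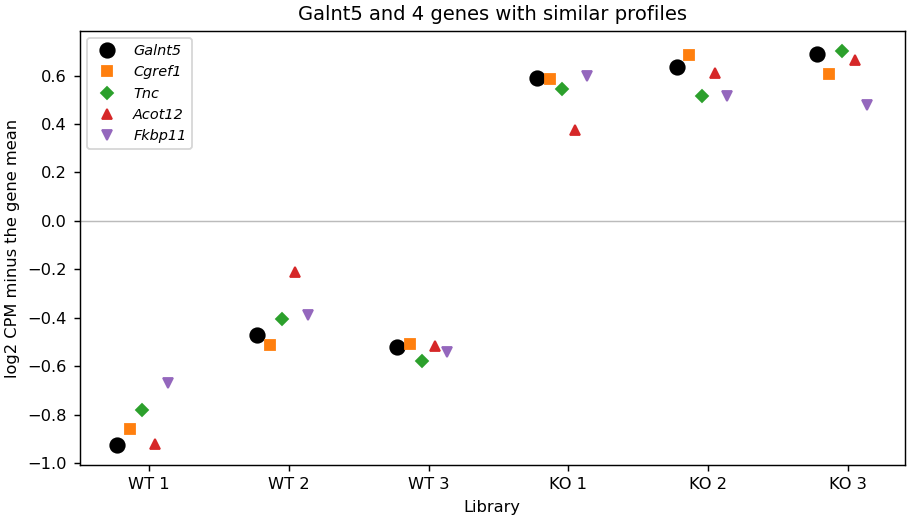
Log2 CPM of Galnt5 and the 4 genes with the most similar profile, each minus its own mean over the 6 libraries, with 1 marker per gene and library. All 5 genes are below 0 in the WT libraries and above 0 in the KO libraries, and each is lowest in WT replicate 1. The choice by profile favours this.

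Markers of several cell types differed between the same libraries. The summed level of 8 osteoblast markers overlapped, at 6990, 10091 and 8817 CPM in WT against 9737 to 10283 CPM in KO, with 7 of the 8 fitted changes above 0. The sum of macrophage markers did not overlap, at 459 to 573 CPM in WT against 743 to 799 CPM in KO (8 genes, 7 above 0). Of its genes, C1qa was lower in KO without overlap and C1qb overlapped, while the others were higher without overlap. EdgeR called 0 genes of the osteoblast and macrophage lists. Schwann cell markers were lower in KO, at 4331 to 7976 CPM in WT against 3049 to 3483 CPM in KO, and 3 of the 7 tested fell, with all 7 fitted changes below 0. Cartilage markers lay at 3396 to 3770 CPM in WT against 2814 to 3276 CPM in KO (8 genes, 7 below 0, 1 fell). The markers said to fall were called lower by edgeR, which called 0.396% of all genes tested in either direction. Epithelial markers overlapped, at 176 to 250 and 183 to 215 CPM (8 genes, 7 below 0), as did blood markers, at 2066 to 7613 and 2506 to 3560 CPM (8 genes, 5 below 0). Skeletal muscle markers were at 4864, 105 and 8410 CPM in WT against 16.1 to 647 CPM in KO (8 genes, all below 0). No marker of these lists was at 0 in any library. The part of these cells in the levels of the transferases was not tested.

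Calls of single members moved with the test and the libraries used. DESeq2 called 3 members, Galnt1, Galnt5 and Galnt6, where it called 8.14% of all genes. Without WT replicate 1 edgeR called Galnt3, Galnt5 and Galnt6, where it called 9.06% of all genes. Without WT replicate 2 it called Galnt5 and Galnt6, where it called 3.78%. Galnt5 was thus called in each of these fits. Galnt6 had an adjusted p of 1.47e-05 with DESeq2, and in edgeR 0.0191 without WT replicate 1 and 0.0348 without WT replicate 2. Without WT replicate 3 its adjusted p in edgeR was 0.156, and without KO replicates 1, 2 and 3 in turn 0.357, 0.271 and 0.333. With the presence of Xist reads as a term it was 0.153 (edgeR). Nothing is read from these counts for the reason given for the first.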

How the data were processed

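RNA of mouse inner ear was sequenced in 3 WT and 3 Pou3f4 KO libraries. Per the labels' protocols, RNA was extracted with TRIzol and sequenced libraries came from the Illumina TruSeq kit for stranded mRNA. HTSeq, Cufflinks, HISAT2 and Trimmomatic are listed without version numbers, with the build mm10, per the submitters' processing notes. Annotation release and strand use in counting: not given in the sources used here. Whole-number read counts per gene, as the authors deposited them, were used.

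Genes were filtered with filterByExpr (minimum count 10), scaled by TMM and tested with glmQLFit and glmQLFTest of edgeR 4.0.16 in R 4.3.3, genotype alone. Benjamini-Hochberg adjustment covered every tested gene, with calls at an adjusted p of at most 0.05. The SE is the fold change divided by the square root of the F statistic. The fit was also run on simulated counts with known changes and no deviating library. Its outcome is not given here, and nothing is read from it. Exon lengths came from GENCODE M21, in which all 21 rows with a family symbol had identical coordinates. The symbol St6galnac2 names 2 identifiers, and that with more counts was used. DESeq2 1.42.0, limma 3.58.1 and the other alternatives are in the closing section.

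All 10 members passed the filter. The members and lists were chosen with earlier results of these data known. Further family genes were all named. Of each list up to 4 called genes were named, or the 2 with the highest mean CPM, and other named genes were chosen after their values were seen. The rule named 5 genes most like a called member, without gene models that lack a proper symbol, of which 4 are given and 1 is not reported here.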

Additional observations from a re-analysis of the deposited data

How the results depend on the processing

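All 10 members kept a fitted change above 0 under RLE and upper-quartile scaling, where the median of all genes moved by less than 0.1 log2. Of the gene values only Galnt12 and Galntl6 changed sign, without WT replicate 3 (−0.12 and 0.23) and without KO replicate 3 (−0.05 and 0.24), within leave-one-out ranges of −0.12 to 0.19 and −0.46 to 0.24. The number of members called was 2 without a filter on low counts and 3 with DESeq2. It was 0 with the replicate block, which called 1 gene in all, and 0 with the presence of Xist reads as a term, which called 0 genes (3185 at an unadjusted p under 0.05). Parm1 was not called in either, leaving 0 mucin-type genes. DESeq2 called 1603 genes, 2 further family genes, 3 extension genes, 2 donor supply genes, 1 other initiator and 1 substrate. Same-numbered samples did not deviate together (correlations of −0.13, −0.29 and −0.19). No sample in one genotype deviated most like its own number in the other. With 3 libraries per group these correlations cannot decide whether the numbers pair the samples.

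Leaving out 1 library in turn gave 0 to 3 members, 0 to 1814 genes, 0 to 2 further family genes, 0 to 3 extension genes, 0 to 1 supply genes, 0 to 1 other initiators, 0 to 1 mucin-type genes and 0 to 3 substrates. The highest counts of members and of genes came without WT replicate 1, and the cause was not tested. With the longest transcript as the length, mean levels were 55.0 RPKM for Galnt1, 7.13 for Galnt7, 13.9 for Galnt10 and 9.99 for Galnt11. At that length Galnt11 was above Galnt6 (7.73 RPKM), so the order of these members depended on the length used. Levels near 0.131 to 0.168 CPM, such as those of Galntl5, are limited by depth.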

Other observations

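Of 10 Muc genes, which encode mucins, WT replicate 1 had the highest level of 6 and the lowest of 3. Muc5b, a gel-forming airway mucin, stood at 35.6 CPM there and at 0.218 to 1.27 CPM in the other 5 libraries. Muc16 stood at 7.93 CPM against 0 to 1.32 CPM, and Muc4 at 3.86 CPM against 0.0436 to 0.407 CPM. Muc6, Muc13 and Muc15 were lowest in it, with Muc15 at 8.10 CPM in WT replicate 1 and 8.65 to 14.2 CPM elsewhere. The epithelial adhesion and keratin markers summed to 250 CPM in WT replicate 1 and 176 to 215 CPM elsewhere.

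The same library had the highest Galnt15, Galnt16, Galnt17 and Galnt18 and the lowest Galnt2, Galnt3, Galnt5, Galnt6, Galnt7 and Galnt11. Cd34, a sialomucin of vessels and fibroblasts, stood at 209 CPM in it and 72.5 to 94.7 CPM in the others. The leukocyte sialomucins Spn and Selplg were lowest in it, at 4.53 and 12.9 CPM against 17.4 to 24.4 and 29.6 to 40.0 CPM. These genes were chosen after their values were seen.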
